A study of Mus musculus with 12 samples.

Results

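The response of bone marrow-derived dendritic cells (BMDC) to lipopolysaccharide (LPS) in the absence of the inhibitor JSH-23 was described from 6 of the 12 RNA-seq libraries of the series. Cells stimulated for 3 h (WTL, replicates 4 to 6, 3 libraries) were compared with unstimulated cells (WT, replicates 4 to 6, 3 libraries), and the members were chosen by these library labels alone. Both groups came from C57BL/6 mice that carried the tamoxifen-inducible CreER recombinase and wild-type Ctcf, male and female and 8 to 12 weeks old. Bone marrow cells were grown in GM-CSF for 6 days with a change of medium every 2 days, and floating cells were then selected on beads for CD11c, the integrin that dendritic cells share with other myeloid cells. WTL cells received 100 ng/ml of LPS for 3 h and WT cells none. The sources do not say whether either group received the solvent of the inhibitor. The other 6 libraries were of cells given 100 µM JSH-23, an inhibitor of NF-κB nuclear entry, for 3 h, with or without LPS, and they entered here only through the shared estimate of the spread between replicates and the closing section. Cultures with GM-CSF hold macrophage-like as well as dendritic cells, so that each library is an average over the selected population. In such bulk RNA, fewer cells of a type and less RNA per cell cannot be told apart.

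LPS, from the cell wall of Gram-negative bacteria, is handed by CD14 to the receptor TLR4 with its partner MD-2 (Ly96), and adaptors of the MyD88 and TRIF branches then activate the IκB kinases, the MAP kinases and the interferon regulatory factors. NF-κB dimers, released from their IκB inhibitors, bind κB elements in promoters and enhancers and switch on cytokines, chemokines, costimulatory molecules and the inhibitors that end the signal. In dendritic cells this program converts an antigen-sampling cell into one that presents antigen and instructs T cells.

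The 6 libraries held 24689433 to 34837847 expected counts each, and the counts of the 2 groups overlapped in depth. Pearson correlations of log2 CPM (counts scaled to the size of the library) over genes were 0.992 to 0.9933 within groups and at least 0.9565 between them. The first principal component of these libraries held 80.0% of the variance and separated WT from WTL, and the second, with 6.02%, set WTL replicate 6 (-27.01) apart from WTL replicates 4 (12.56) and 5 (13.46). The CD11c gene Itgax, on which the cells were selected, had 634, 673 and 638 CPM in WT and 652, 651 and 664 CPM in WTL. Of 13 dendritic cell markers, Itgax included, 12 were tested, Cd209a having at most 3 counts in any of the 6 libraries, and Zbtb46 (log2 fold change 1.02) and Irf4 (1.41) were called higher and Clec9a (-1.84) lower. All 12 macrophage markers were also present, among them Lyz2, C1qb and Adgre1, with a summed level of 12800 to 13700 CPM in WT and 12000 to 12200 CPM in WTL. The neutrophil markers summed to 293 to 307 CPM in WT and 263 to 271 CPM in WTL, Mmp8 holding most of it, with Ly6g at no more than 5 counts. B cell and erythroid markers were too low to test. The part of any of these cells in the results below was not tested.

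LPS changed a large share of the transcriptome within 3 h. Of 14357 genes tested, 1056 were higher in WTL (7.36%) and 1305 were lower (9.09%) by both criteria used here, an edgeR adjusted p below 0.05 and over 2-fold change, which is what "called", "rose" and "fell" mean here. The median log2 fold change (log2 WTL over WT) was 1.54 among the genes called higher, -1.38 among those called lower and -0.05 over all genes. Most calls were of modest size: 736 of the genes that rose (69.7%) and 1053 of those that fell (80.7%) changed between 2- and 4-fold. At any fold, 9437 genes (65.7%) passed the adjusted p, 31.0% of all genes as higher and 34.7% as lower. In 10033 genes (69.9%) the WT and WTL libraries did not overlap, so that separated groups are the usual state here. Although more genes fell, the genes that rose carried far more RNA. They took 7.31% to 7.42% of the counts of each WT library and 18.3% to 18.9% of each WTL library, whereas the genes that fell went from 2.69% to 2.7% of the counts to 0.776% to 0.851%. The balance of the calls moved with the scale: 44.7% of calls were higher here, against 37.9% with upper quartile scaling (940 higher, 1541 lower) and 30.0% on deposited TPM, a length-scaled level (403 higher, 942 lower), where the median of all genes lay at -0.26. On TPM, 22 of the 139 named genes lost their call. Among them were Nfkb1, Ikbkb, Cd86, Slfn2, C5ar1, Nod2, Ccl22, Tlr7, Ly75, Jag1, Sqstm1 and Dll1, which are described as higher below. The added 1 shrinks low values such as those of Dll1 (mean TPM 1.94 in WT). It is small beside the WT means of Ccl22 (5180) and Nfkb1 (242). In the plot of WTL against WT levels Cxcl1, Dll4, Shisa3 and Fst are the labelled genes with the largest ratio.

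**Figure D1:**
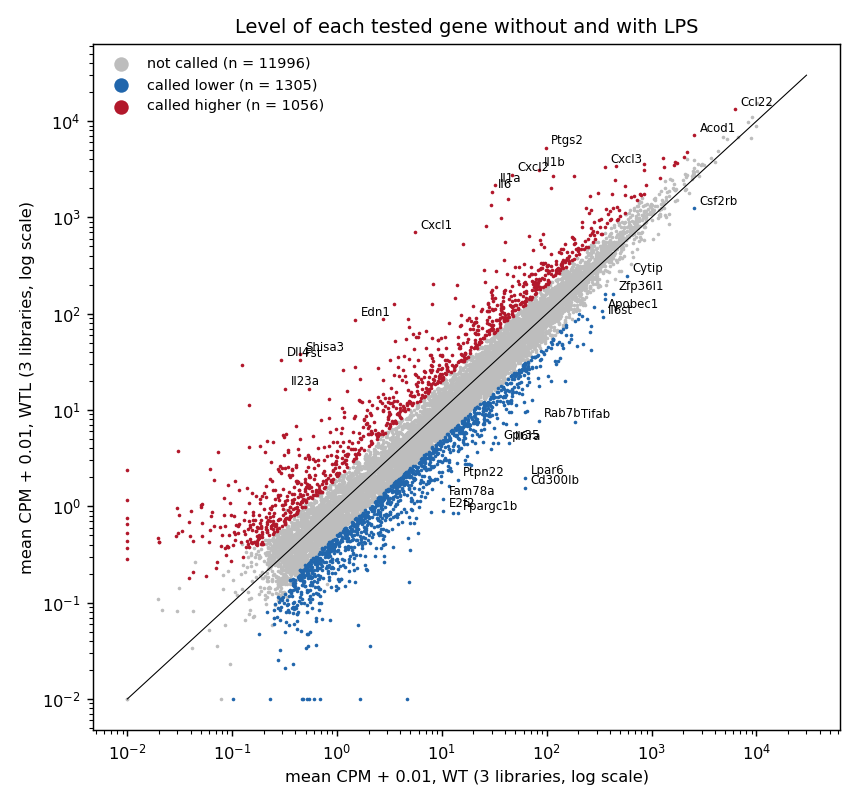
Mean CPM (+ 0.01) of each tested gene in WT (x axis) and WTL (y axis), 3 libraries each, both axes on a log scale, with genes called higher in red (1056), called lower in blue (1305) and not called in grey (11996). The line marks equal levels, and the labels name the 10 largest rises and falls and the 5 largest gains and losses in CPM under the naming rule.

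The largest rises were mostly in genes of secreted factors. Cxcl1, a neutrophil-attracting chemokine, was at 4.74, 5.72 and 6.04 CPM in WT replicates 4, 5 and 6 and at 737, 680 and 680 CPM in WTL, a rise of 6.99 ± 0.0868 (SE) in log2 terms with an adjusted p of 4.62e-23 by edgeR. The groups lay far apart, with replicates within each group close together. Dll4, a Notch ligand by which dendritic cells instruct T cells, had 0.367, 0.171 and 0.310 CPM in WT and 38.2, 34.1 and 28.0 CPM in WTL (log2 fold change 6.89). Follistatin (Fst), a secreted antagonist of activins, went from 0.550, 0.427 and 0.310 CPM to 35.1, 32.7 and 30.3 CPM (6.23). Both were close to 0 without LPS and reached at least 28.0 CPM with it. The activin subunit gene Inhba, whose product follistatin binds, rose as well (5.20). Edn1, which encodes the vasoconstrictor endothelin, had 1.80, 1.59 and 1.03 CPM in WT and 101, 91.6 and 67.7 CPM in WTL (5.86). Shisa3, an inhibitor of Wnt and FGF receptor maturation, rose by a log2 fold change of 6.47, from at most 0.552 CPM to at least 32.9 CPM, although its locus overlaps Atp8a1 in the annotation. The remaining genes among the 10 largest rises were Il1a, Il6, Cxcl2, Ptgs2 and Il23a, described below with their families.

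The largest falls included receptors and regulators of myeloid cells. Cd300lb, an activating receptor of the CD300 family, had 61.2, 67.7 and 58.9 CPM in WT and 1.08, 1.60 and 1.98 CPM in WTL. Tifab, an inhibitor of TRAF6 signalling, had 179, 193 and 190 CPM in WT and 7.17, 7.33 and 8.01 CPM in WTL. Both were lower in every WTL library than in any WT library by more than an order of magnitude. Ppargc1b, a coactivator of mitochondrial gene transcription, fell by 4.12 on the log2 scale, and Rab7b (-3.46), a late endosomal GTPase that promotes TLR4 degradation, and Il6ra (-3.29), the ligand-binding chain of the IL-6 receptor, fell as well. Gpr35 (-2.93), a G protein-coupled receptor, Ptpn22 (-2.91), a tyrosine phosphatase of immune signalling, and Fam78a (-3.15) completed this group with E2f2 (-3.50), a cell cycle factor, and Lpar6 (-4.99), a lysophosphatidic acid receptor that lies inside Rb1.

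**Figure D2:**
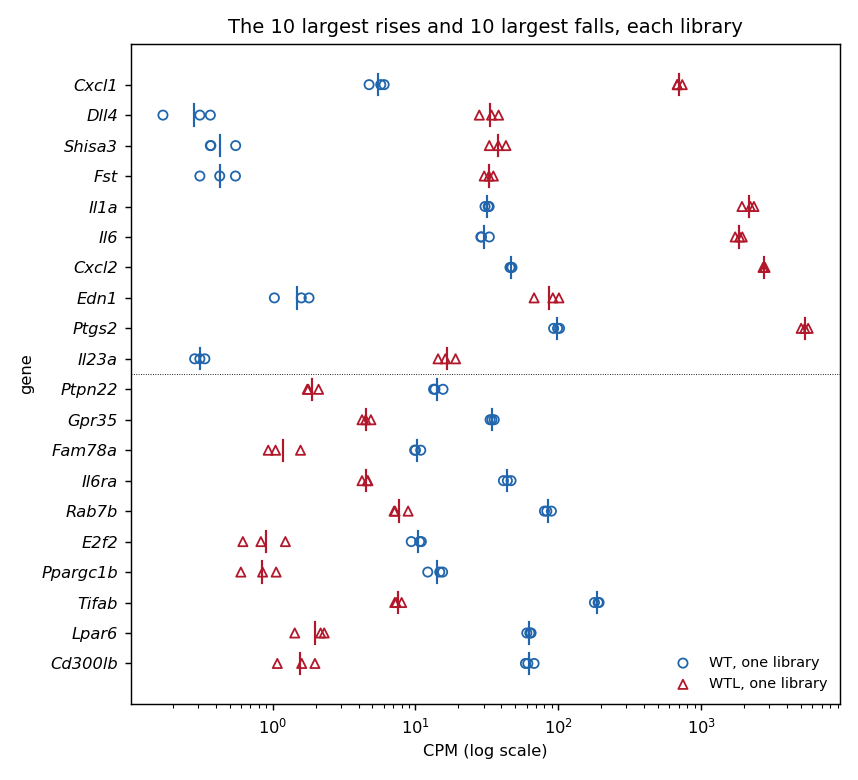
CPM (x axis, log scale) of the 10 largest rises (upper) and 10 largest falls (lower) under the naming rule, with open circles for the 3 WT libraries, open triangles for the 3 WTL libraries and vertical bars for group means. The naming rule required groups without overlap, so that its absence is no result of the figure. The genes run from Cxcl1 (4.74 to 6.04 CPM in WT, 680 to 737 in WTL) to Cd300lb (58.9 to 67.7 in WT, 1.08 to 1.98 in WTL).

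Among called genes that met the naming rule, the largest gains in CPM were in Ccl22, Ptgs2, Acod1, Il1b and Cxcl3. Ccl22, a chemokine for CCR4-bearing T cells, was already at 6410, 6040 and 6430 CPM in WT and reached 13500, 13300 and 13000 CPM in WTL (log2 fold change 1.08, or 0.995 and so below 2-fold with upper quartile scaling). Ptgs2, the inducible cyclooxygenase, went from 98.8, 102 and 92.7 CPM to 5610, 5310 and 5010 CPM (5.76), and Acod1, the enzyme that makes itaconate, from 2450, 2680 and 2490 CPM to 7130, 7100 and 7170 CPM (1.49). Ccl22 and Acod1 were thus abundant before stimulation, whereas Ptgs2 was not. Per length, the mean TPM in WTL were 8660 for Ccl22, 5420 for Cxcl3, 3860 for Acod1, 3680 for Il1b and 1620 for Ptgs2. Among called genes under the same rule the largest loss of CPM was in Csf2rb, the common beta chain of the GM-CSF receptor, which fell from 2570, 2530 and 2590 CPM to 1200, 1220 and 1310 CPM (-1.04). Csf2rb had counts that the estimation split with other loci in 12 of 12 libraries, and its near-copy Csf2rb2 stood at -0.77, not called. Cytip (-1.23), a regulator of dendritic cell adhesion, Zfp36l1 (-1.41), Il6st (-1.90) and Apobec1 (-1.68) followed. Csf1r (-0.76), the M-CSF receptor, did not pass 2-fold but lost more CPM than Cytip, from 1100, 1180 and 1140 CPM to 638, 661 and 728 CPM.

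Since κB elements are the landing sites of the factor that LPS activates, the promoters of 5 strongly induced genes are shown. Each is the 150 bases before the RefSeq start on GRCm38.p6, 5′ to 3′ on the gene's strand, with matches to the κB consensus in capitals, and the genes were chosen after the matches were seen.
Cxcl1, chr5:90891095-90891244, + strand: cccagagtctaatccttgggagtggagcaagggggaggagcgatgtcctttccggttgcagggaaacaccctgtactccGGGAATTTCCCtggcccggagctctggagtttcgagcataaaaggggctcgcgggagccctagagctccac
Cxcl2, chr5:90903749-90903898, + strand: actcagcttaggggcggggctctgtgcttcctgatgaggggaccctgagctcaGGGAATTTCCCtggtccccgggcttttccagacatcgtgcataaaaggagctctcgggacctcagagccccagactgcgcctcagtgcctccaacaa
Cxcl3, chr5:90785951-90786100, + strand: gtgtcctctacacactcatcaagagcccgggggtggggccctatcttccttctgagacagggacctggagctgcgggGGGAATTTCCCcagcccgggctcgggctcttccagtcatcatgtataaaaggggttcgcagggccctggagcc
Il6, chr5:30012964-30013113, + strand: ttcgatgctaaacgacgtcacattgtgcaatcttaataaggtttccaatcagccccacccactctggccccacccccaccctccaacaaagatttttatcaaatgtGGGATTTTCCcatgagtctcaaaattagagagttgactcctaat
Nfkbia, chr12:55492648-55492797, - strand: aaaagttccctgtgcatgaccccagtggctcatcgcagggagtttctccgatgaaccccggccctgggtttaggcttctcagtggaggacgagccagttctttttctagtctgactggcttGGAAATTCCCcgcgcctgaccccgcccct
Cxcl1, Cxcl2 and Cxcl3 lie near each other on chromosome 5. In each, the capitals hold 2 overlapping matches in 1 shared run of letters. The match nearer to the gene began 70, 96 and 72 bases before the start, respectively. The single matches of Il6 and Nfkbia began 44 and 29 bases before it. A match is a description of letters and not a bound site.

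The share of promoters with a κB match was counted for genes that rose and fell. A promoter of 300 bases (250 before and 50 from the start on) was available in RefSeq for 10216 of the 14334 tested genes with a symbol, and a gene counted when at least 1 of its promoters held the motif on either strand. The κB consensus was in 156 of 689 genes that rose (22.6%), 123 of 910 that fell (13.5%) and 15.9% of tested genes, and in 11.2% of all 32851 promoters counted singly. Of the 100 largest rises 28 held it, and of the 100 largest falls 10. The median GC content of the promoters was 60.7% for genes that rose, 59.3% for those that fell and 60.7% for the rest. The interferon response element GAAANNGAA was in 9.29% of genes that rose and 8.57% of those that fell (8.91% of tested genes, 8.56% of all promoters), and the AP-1 motif TGANTCA in 8.42% and 8.57% (6.36% and 7.81%). The C/EBP motif TTGNNCAA was in 7.55% and 7.91% (6.55% and 6.4%), and the PU.1 motif GAGGAAGT in 4.5% and 5.16% (4.08% and 3.2%). The cyclic AMP element TGACGTCA was in 4.06% of genes that rose and 1.87% of those that fell (3.55% and 1.79%), whereas TTTGAATT, the CHR element of cell cycle genes, was in 1.16% and 2.31% (1.1% and 1.29%). Shares of all promoters are per promoter, whereas a gene had a mean of 1.27 to 1.29 promoters, so that the 2 kinds of share are not alike. No test was made of these shares, and motifs may overlap.

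The receptor itself moved against its co-receptor. Of 24 genes of the TLR4 complex and its adaptors, 4 were called higher (16.7%, against 7.36% of all genes) and 2 lower (8.33%, against 9.09%), with a median of 0.38. Tlr4 fell from 40.2, 43.1 and 37.1 CPM to 16.2, 15.6 and 14.3 CPM (-1.38, adjusted p = 6.09e-14), while Cd14 rose from 236, 244 and 237 CPM to 1290, 1300 and 1210 CPM (2.41, adjusted p = 8.8e-20). No library of one group reached the range of the other for either gene, as for 69.9% of tested genes. The kinases Ikbkb (1.27) and Map3k8 (1.55) and the inhibitory kinase Irak3 (1.18) rose, and Tab1 (-1.54), an activator of TAK1, fell. The adaptors Myd88 (0.74), Ticam1 (0.32) and Ticam2 (-0.32) were not called. Of 18 tested genes among 19 other pattern recognition receptors, 3 rose (16.7%, against 7.36% of all genes) and 1 fell (5.56%, against 9.09%). Nlrp3 (2.86), the inflammasome sensor, Nod2 (1.10) and Tlr7 (1.04) rose and Tlr9 (-1.36) fell. Tlr7 stood near the threshold and lost its call without WT replicate 6 (0.999).

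Among the NF-κB genes, Nfkbiz, Tnfaip3 and Nfkbia rose most. Of 20 genes, 11 were called higher (55% of them, against 7.36% of all genes) and none lower, with a median of 1.04. With an adjusted p under 0.05 at any fold, 18 were higher and 1 lower, beside 31.0% and 34.7% of all genes. Nfkbiz, an atypical IκB that acts in the nucleus, went from 27.4, 26.1 and 24.6 CPM to 848, 834 and 788 CPM (4.98). Tnfaip3, the ubiquitin-editing enzyme A20, rose from 253, 257 and 265 CPM to 1700, 1660 and 1600 CPM (2.68). Nfkbia, which encodes IκBα, rose from 267, 266 and 266 CPM to 1190, 1220 and 1130 CPM (2.15). In all 3 genes replicates lay within a narrow band and the groups were widely separated. Nfkbib (1.44), Nfkbie (1.25), Nfkbid (1.60), Bcl3 (1.02), Tnip1 (1.71) and Traf1 (1.05) also rose. Of the 5 subunits, the precursors Nfkb1 (1.25) and Nfkb2 (1.23) rose, while Rela (0.76), Relb (0.35) and Rel (0.16) did not pass 2-fold.

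Cytokines had the highest median of the gene lists, 2.56, with 21 of 30 tested members called higher (70%, against 7.36% of all genes) and 2 lower (6.67%, against 9.09%). The interleukin-1 genes were prominent: Il1b rose from 86.3, 83.3 and 82.0 CPM to 3210, 3230 and 2860 CPM (5.21), and Il1a from 32.3, 32.8 and 30.7 CPM to 2340, 2210 and 1930 CPM (6.08, with counts split with another locus in 12 of 12 libraries). Their receptor antagonist Il1rn rose less (1.54). Among IL-12 family subunits, Il23a (5.72), Il12a (5.03), Il12b (4.57), Il27 (3.90) and Ebi3 (2.02) all rose. Il23a went from 0.336, 0.285 and 0.310 CPM to 19.1, 16.2 and 14.4 CPM. Per length, its mean TPM in WTL was 18.9, against 2140 for its partner chain Il12b. The anti-inflammatory Il10 rose from 0.398, 0.541 and 0.655 CPM to 18.3, 17.3 and 13.7 CPM (4.96). All of these genes had WTL libraries above every WT library, and WTL replicate 6, the library apart on the second component, was the lowest of its group for Il1a, Il6, Il12b, Il23a and Il10. Members of the TNF family went both ways. Tnf (4.22), Tnfsf15 (4.74), Tnfsf9 (4.24) and Tnfsf4 (1.40) rose, Tnfsf13b, the B cell factor BAFF, fell (-1.55, from at most 1.74 CPM), and Tnfsf10, the death ligand TRAIL, was at -0.96. Among growth factors, Lif (3.47), Csf1 (2.18) and Gdf15 (2.94) rose and Vegfa, the angiogenic factor, fell from 55.9, 46.5 and 53.1 CPM to 17.9, 18.5 and 19.1 CPM (-1.49). Csf3, which encodes G-CSF, had 0.0612, 0 and 0 CPM in WT and 4.18, 4.17 and 2.95 CPM in WTL, too few counts in WT for a fold change, and Csf2 was too low to test.

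Chemokines rose in 10 of 23 tested genes (43.5%, against 7.36% of all genes) and fell in none, with a median of 0.90. The members that rose most were attractants of neutrophils and of inflammatory cells. Ccl3 went from 28.9, 30.4 and 28.0 CPM to 1380, 1350 and 1260 CPM (5.51), and its neighbour Ccl4 rose by 5.07. Cxcl2 (45.9, 46.9 and 47.4 CPM to 2800, 2710 and 2740 CPM, 5.88) and Cxcl3 (355, 379 and 354 CPM to 3430, 3380 and 3290 CPM, 3.21) had counts split with other loci in 11 of 12 libraries. In each of the 3 genes the spread within a group was small beside the gap between groups. Cxcl5 (3.54), Ccl17 (1.33), Ccl24 (1.19) and Ccl9 (1.10) rose as well. The monocyte attractant Ccl2 (0.69), Ccl5 (0.90) and the interferon-induced Cxcl10 (0.85), Cxcl9 (0.37) and Cxcl11 (0.03) were not called.

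Receptors for chemoattractants went in both directions. Of 22 tested genes, 9 fell (40.9%, against 9.09% of all genes) and 4 rose (18.2%, against 7.36%), with a median of -0.41. At any fold 11 were lower and 8 higher, beside 34.7% and 31.0% of all genes. Ccr2, the receptor for monocyte chemoattractants, fell from 143, 159 and 145 CPM to 19.7, 19.3 and 20.8 CPM (-2.91), and Cxcr4, which holds cells in the bone marrow, from 67.9, 56.4 and 62.6 CPM to 8.29, 10.4 and 10.1 CPM (-2.70). Cx3cr1, the fractalkine receptor, fell from 45.4, 47.5 and 42.8 CPM to 9.07, 8.97 and 10.6 CPM (-2.25). None of these WTL libraries approached the WT range. Among the others that fell were Ccr1 (-1.33), the complement receptor C3ar1 (-2.03), the nucleotide receptor P2ry6 (-1.97), C5ar2 (-2.18) and S1pr4 (-1.37). C5ar2 and S1pr4 were low, at no more than 1.19 CPM in any WT or WTL library. The genes that rose were Ccrl2 (2.64), a chemerin-binding receptor that does not signal, the formyl peptide receptor Fpr1 (1.95), the complement receptor C5ar1 (1.21) and Cxcr5 (1.01, to at most 2.49 CPM). Ccr7, which guides dendritic cells to lymph nodes, was at 1360, 1220 and 1340 CPM in WT and 1400, 1480 and 1360 CPM in WTL. Its groups overlapped, and its log2 fold change of 0.11 became -0.223 on TPM.

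Of 22 costimulation and maturation genes, 13 rose (59.1%, against 7.36% of all genes) and none fell, with a median of 1.12. Cd40, the receptor for T cell help, rose from 301, 310 and 307 CPM to 1840, 1850 and 1740 CPM (2.56), and Cd80, a ligand of CD28, from 53.3, 47.1 and 50.3 CPM to 326, 311 and 284 CPM (2.61). Cd86, the other CD28 ligand, rose less, from 160, 165 and 161 CPM to 367, 366 and 326 CPM (1.12). The largest rise was in Cd70 (4.52), the ligand of CD27, from at most 1.17 CPM to at least 22.9 CPM. Slamf1 (3.02), Cd200 (1.87), Marcksl1 (1.86), Vcam1 (1.81), Icam1 (1.62), Cd44 (1.56), Cd69 (1.13), Fscn1 (1.12) and Il2ra (1.02) rose too. Cd83 (0.65) and the checkpoint ligand Cd274 (0.52) were not called, and Pdcd1lg2, the second PD-1 ligand, was at -0.78.

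Antigen presentation genes, by contrast, had no called member. All 16 genes of MHC class II presentation lay between -0.59 and 0.76 (median 0.18), and H2-Ab1 was at 2040, 2050 and 2090 CPM in WT and 2790, 2880 and 2810 CPM in WTL (0.46). Its groups did not overlap, as for 69.9% of tested genes, and the change was under 2-fold. The 22 genes of class I presentation lay between -0.19 and 0.61 (median 0.25), and 20 of them passed the adjusted p as higher at any fold, beside 31.0% of all genes. The medians of both lists changed sign on TPM, to -0.13 for class II and -0.08 for class I, where all genes lay at -0.26.

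Interferon-stimulated genes were already expressed before LPS. Of 50 genes, 6 were called higher (12%, against 7.36% of all genes) and 1 lower (2%, against 9.09%), with a median of 0.31 (-0.01 on TPM) and a summed level of 28400 to 29900 CPM in WT and 35700 to 38100 CPM in WTL. At any fold, 38 passed as higher and 8 as lower, beside 31.0% and 34.7% of all genes. Ifi205 rose from 211, 230 and 209 CPM to 959, 921 and 830 CPM (2.06), with counts split in 12 of 12 libraries, Gbp5, a guanylate-binding protein, from 637, 661 and 629 CPM to 1680, 1640 and 1590 CPM (1.35), and Slfn2, a Schlafen protein of leukocytes, from 764, 795 and 759 CPM to 1770, 1810 and 1670 CPM (1.18). These genes were already well expressed in WT. Isg15 (1.01), Oasl1 (1.03) and Tgtp1 (1.08) were just past 2-fold. Canonical members such as Ifit1 (0.39), Ifit2 (-0.16), Rsad2 (0.41), Mx1 (0.45) and Irf7 (0.15) were not called, and Ifit3b fell (-1.10, counts split in 12 of 12 libraries). Ifnb1, the interferon β gene, had 0.367, 0.484 and 0.345 CPM in WT and 1.90, 1.47 and 2.07 CPM in WTL (2.15), a rise at a low level. Of the interferon regulatory factors Irf1 (1.35) and Irf4 (1.41) rose.

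**Figure D3:**
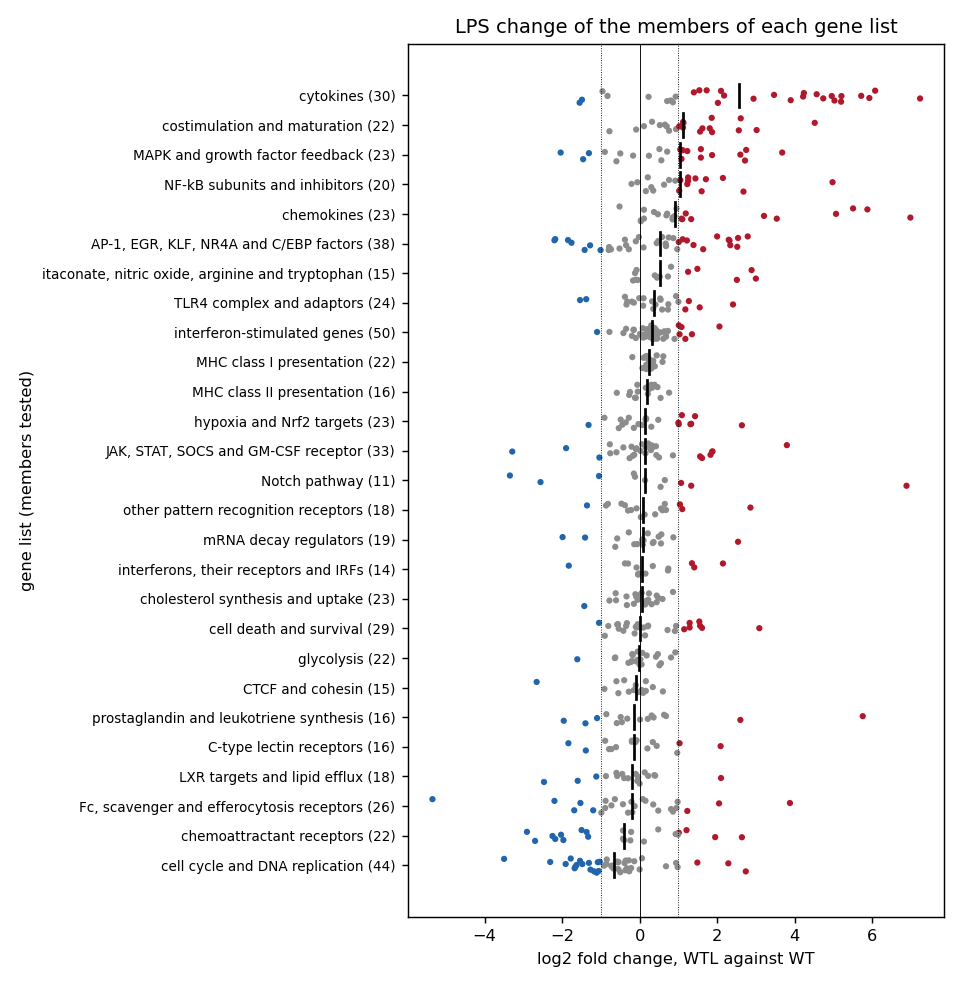
Log2 fold change of WTL against WT (x axis) for each tested member (point) of 27 gene lists (rows, with the number tested), red where called higher, blue where called lower and grey otherwise. Black bars are list medians, from 2.56 for cytokines to -0.66 for cell cycle genes, dotted lines mark 2-fold, and the vertical jitter within a row carries no value.

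Immediate-early and signalling regulators split by member. Of 38 AP-1, EGR, KLF, NR4A and C/EBP genes, 12 rose (31.6%, against 7.36% of all genes) and 7 fell (18.4%, against 9.09%), with a median of 0.53. Maff (2.79), Batf (2.54), Fosl2 (2.52), Nr4a1 (2.34), Fosl1 (2.32), Klf7 (2.30) and Cebpd (2.00) rose. Egr3 (-2.20), Cebpa (-1.85), Fos (-1.76), Tsc22d3 (-1.42), Maf (-1.28) and Myc (-1.01) were among those that fell, while Jun (-0.10), Egr1 (-0.52) and Atf3 (-0.79) were not called. The pair of C/EBP factors moved apart: Cebpd went from 11.1, 10.4 and 11.4 CPM to 42.1, 44.5 and 44.3 CPM, and Cebpa from 52.7, 55.3 and 54.0 CPM to 15.5, 14.6 and 15.1 CPM. Of 23 tested genes of MAP kinase and growth factor feedback, 12 rose (52.2%, against 7.36% of all genes) and 3 fell (13%, against 9.09%), with a median of 1.05. The phosphatases Dusp14 (3.68), Dusp2 (2.75), Dusp4 (2.60), Dusp16 (1.58) and Dusp1 (1.05) rose. Dusp6 (-2.04) and Dusp7 (-1.46), which act on ERK, fell, from at most 7.68 CPM in WT.

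In the JAK-STAT list, 6 of 33 genes rose (18.2%, against 7.36% of all genes) and 3 fell (9.09%, the share of all genes that fell), with a median of 0.15. Socs3, an inhibitor of receptor signalling by the IL-6 family, rose from 39.4, 39.8 and 40.3 CPM to 550, 587 and 526 CPM (3.80). The shared receptor chain Il6st fell from 340, 343 and 345 CPM to 89.7, 87.7 and 98.5 CPM (-1.90), and Il6ra from 41.3, 44.0 and 46.7 CPM to 4.61, 4.23 and 4.65 CPM (-3.29). The ligand gene Il6 meanwhile went from 32.9, 28.7 and 29.0 CPM to 1940, 1860 and 1730 CPM (5.93), so that ligand and inhibitor rose as both receptor chains fell. Cish (1.88), Pim1 (1.87), Stat5a (1.83), Socs1 (1.61) and Pim3 (1.56) rose, and Stat2 (-0.08) and Stat3 (0.16) were not called. Of 19 regulators of mRNA decay, 1 rose (5.26%, against 7.36% of all genes) and 2 fell (10.5%, against 9.09%). Zc3h12a, the endonuclease Regnase-1 that degrades cytokine mRNAs, rose from 33.9, 31.3 and 32.5 CPM to 194, 189 and 184 CPM (2.54). Zfp36l1 (430, 417 and 428 CPM to 146, 158 and 175 CPM) and Zfp36l2 (118, 135 and 127 CPM to 32, 30.2 and 33.8 CPM, -1.99) fell, and their relative Zfp36, tristetraprolin, was at 0.10.

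In the metabolic lists a few genes of each were called. Of 15 tested genes of itaconate, nitric oxide, arginine and tryptophan metabolism, 5 rose (33.3%, against 7.36% of all genes) and none fell (median 0.52). The arginine transporter Slc7a2 went from 448, 474 and 449 CPM to 3510, 3310 and 3350 CPM (2.89), and Nos2, the inducible nitric oxide synthase, from 56.0, 52.8 and 53.1 CPM to 327, 317 and 276 CPM (2.51). Gch1 (1.25), which makes the cofactor of nitric oxide synthase, and Arg2 (3.00) rose as well, and Arg1 was too low to test. In the prostaglandin list of 16 tested genes, 2 rose (12.5%, against 7.36% of all genes) and 3 fell (18.8%, against 9.09%). Ptgs2 and Ptges, the inducible prostaglandin E synthase (19.2, 19.5 and 20.5 CPM to 121, 120 and 119 CPM, 2.60), rose. The constitutive Ptgs1 fell from 15.3, 19.3 and 17.5 CPM to 3.87, 4.83 and 4.70 CPM (-1.96), as did thromboxane synthase Tbxas1 (-1.40) and the receptor Ptger2 (-1.10). Only Pfkfb4 (-1.61) of 22 glycolysis genes and Dhcr7 (-1.43) of 23 tested cholesterol genes were called, both as lower. Among 18 genes of lipid efflux, 1 rose (5.56%, against 7.36% of all genes) and 3 fell (16.7%, against 9.09%). The desaturases Scd2 (113, 109 and 109 CPM to 19.3, 20.0 and 20.7 CPM, -2.47) and Scd1 (-1.12) and Pparg (-1.60) fell, and Ch25h, cholesterol 25-hydroxylase, rose (2.10). Of 23 hypoxia and Nrf2 genes, 7 rose (30.4%, against 7.36% of all genes) and 1 fell (4.35%, against 9.09%). Among those that rose were Slc7a11 (1.31), Sqstm1 (1.33), Txnrd1 (1.09), Hif1a (1.00) and Sod2 (1.01), while Hmox1 (0.07) and Nqo1 (-0.03) were not called. The call of Egln3 (1.43) was lost without WT replicate 5 (0.988).

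Cell cycle genes had the lowest median of the lists (-0.66), with 16 of 44 called lower (36.4%, against 9.09% of all genes) and 3 higher (6.82%, against 7.36%). At any fold, 34 were lower and 6 higher, beside 34.7% and 31.0% of all genes. E2f2, an activator of replication genes, fell from 10.7, 11 and 9.35 CPM to 0.620, 1.23 and 0.829 CPM (-3.50). The mitotic genes Cenpf (-2.31), Bub1b (-1.91), Cdc20 (-1.78), Kif11 (-1.68), Aurkb (-1.66), Plk1 (-1.63), Ccna2 (-1.54) and Ccnb1 (-1.48) fell with it, from levels of at most 14.6 CPM. Against this direction, Mki67, whose product Ki-67 is the common marker of proliferating cells, rose from 85.1, 86.6 and 87.8 CPM to 600, 559 and 580 CPM (2.74, adjusted p = 4.89e-22), and no deposited count of Mki67 was split with another locus. E2f8, an atypical E2F repressor, rose from 18.0, 17.1 and 17.4 CPM to 88.0, 82.4 and 85.1 CPM (2.29), and Ccnd2, cyclin D2, from 394, 381 and 375 CPM to 1140, 1080 and 1020 CPM (1.49), both with counts split in at least 11 of 12 libraries. For all 4 of these genes the groups did not overlap (as for 69.9% of tested genes), E2f2 in one direction and the others in the opposite one. Top2a (-0.55), Cdk1 (-0.37) and Pcna (-0.14) were not called. The plot of cell cycle genes and chemoattractant receptors shows these members beside the genes that did not pass.

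**Figure D4:**
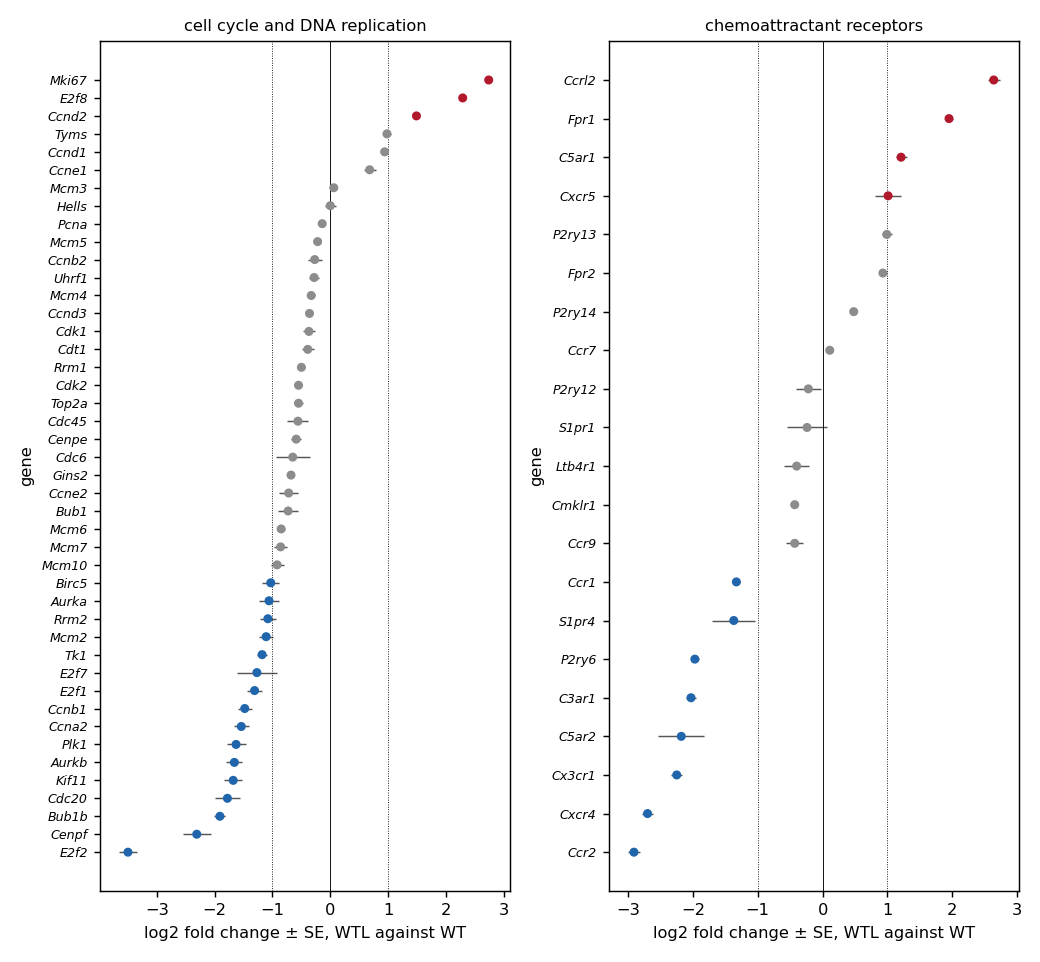
Log2 fold change of WTL against WT (x axis, points with bars for ± SE of the edgeR fit, 3 libraries a group) for the 44 cell cycle genes (left) and 21 of the 22 chemoattractant receptor genes (right), red where called higher, blue where called lower and grey otherwise, with dotted lines at 2-fold. Mki67 (2.74) and E2f2 (-3.50) are the ends of the left panel, and Ccrl2 (2.64) and Ccr2 (-2.91) those of the right.

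Surface receptors of myeloid cells changed by family member. Of 26 tested Fc, scavenger and efferocytosis receptors, 3 rose (11.5%, against 7.36% of all genes) and 5 fell (19.2%, against 9.09%), with a median of -0.20. The activating receptor Trem1 rose from 3.79, 3.19 and 3.73 CPM to 51.1, 52.8 and 53.8 CPM (3.88), and Trem2, a lipid-sensing member of the same family, was at -0.99. In the CD300 family Cd300a (-2.20), Cd300lf (-1.53) and Cd300ld (-1.20) fell with Cd300lb, and Cd300c2 stood at -0.73. Stab1 (-1.69), a scavenger receptor, fell, and Fcgr2b, the inhibitory Fc receptor, rose (1.23, counts split in 12 of 12 libraries). Of 16 tested C-type lectins, 2 rose (12.5%, against 7.36% of all genes) and 2 fell (12.5%, against 9.09%). Clec4e, the receptor Mincle, rose from 834, 883 and 813 CPM to 3700, 3540 and 3550 CPM (2.09) and Ly75 (1.03) rose, while Clec9a and Clec2i (-1.39) fell. Clec7a, the β-glucan receptor, was at -0.89.

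Several regulators of cell survival were called. Of 29 genes of cell death and survival, 7 rose (24.1%, against 7.36% of all genes) and 1 fell (3.45%, against 9.09%), with a median of 0.02. Bcl2l1, which encodes Bcl-xL, rose from 33.7, 31.8 and 32.6 CPM to 291, 284 and 261 CPM (3.09). Cflar (1.56) and the A1 genes Bcl2a1a (1.15), Bcl2a1b (1.29) and Bcl2a1d (1.29) rose, although near-identical A1 copies share reads. The pro-apoptotic Bcl2l11 rose too (1.54), as did Ripk2 (1.61), and Pmaip1, the pro-apoptotic Noxa, fell (-1.05). In the Notch list, with 11 of 16 genes tested, 3 rose (27.3%, against 7.36% of all genes) and 3 fell (27.3%, against 9.09%). Dll4, Jag1 (1.33) and Dll1 (1.07) rose. The target gene Nrarp had 0.520, 0.285 and 0.517 CPM in WT and 0.0775, 0 and 0.0460 CPM in WTL, a fall at very few counts. Jag2 (-1.05), also low, lost its call without WT replicate 6 (-0.892) or WTL replicate 6 (-0.831), and Dll1 without WTL replicate 5 (0.938). Of 15 CTCF and cohesin genes only Esco2 (-2.66), the acetyltransferase of S phase, was called, and Ctcf was at 64.0, 61.1 and 64.2 CPM in WT and 56.7, 57.7 and 56.1 CPM in WTL (-0.15).

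Pdgfrb, a receptor usual in stromal cells, rose from 2.14, 2.11 and 3.07 CPM to 27.2, 27.1 and 28.1 CPM (3.51) and Pdgfra from 0.214, 0.313 and 0.172 CPM to 4.46, 5.07 and 4.37 CPM (4.27). Both were higher in every WTL library, whereas the stromal collagen genes Col1a1, Col1a2 and Col3a1 had at most 4 counts in each of the 6 libraries. These genes were named after their values were seen.

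Noncoding genes took part in the response. Of 1409 long noncoding RNA genes tested, 148 rose (10.5%) and 176 fell (12.5%), beside 6.94% and 8.92% of 12299 protein-coding genes. Mir155hg, the host transcript of the inflammatory microRNA miR-155, went from 39.4, 42.4 and 36.4 CPM to 174, 170 and 149 CPM (2.06). Kcnq1ot1, an imprinted antisense RNA, fell (-1.32), and with the strand setting of the counting unknown its reads cannot be told from those of Kcnq1. The 79 cytosolic ribosomal protein genes had no call, lying between -0.47 and 0.71 around a median of 0.20.

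Some called genes were neighbours. Runs of at least 4 protein-coding tested genes in a row called in the same direction numbered 8 for rises (35 genes) and 5 for falls (20 genes). On chromosome 17 Tnf rose with Lta (3.59), the lymphotoxin gene beside it, Nfkbil1 (1.55) and Gm16181. The longest run, on chromosome 14, held Sorbs3 (1.07), Ppp3cc (1.07), the zinc transporter Slc39a14 (3.06), Piwil2, Polr3d (1.77) and Bmp1 (1.55). Slc39a14 went from 24.8, 26.2 and 25.6 CPM to 216, 209 and 213 CPM, while Sorbs3 stayed at or under 2.02 CPM in every library. Reads that run past gene ends were not examined here. Neighbouring genes of Il6st on chromosome 13, Map3k1, Ankrd55 and Il31ra, fell with it. Genes that rose spanned a median of 26406 bases, those that fell 23831 and all tested protein-coding genes 23529.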

How the data were processed

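RNA-seq was analysed from BMDC of 4 groups of 3 libraries, each labelled with its own replicate number, which the study treats as biological replicates. The labels describe rRNA depletion and a TruSeq kit and the methods a stranded poly-A kit, so the handling of strand is unsettled. The authors trimmed reads, aligned them to mm10 with STAR (2.6.0c in the submitters' processing notes, while the study's reporting form gives another release) and estimated gene values with RSEM (the GENCODE release is not given in the sources used here). The deposited values used are expected counts and TPM, as the authors made them per gene. RSEM splits reads shared by loci, which gives fractional counts. Split counts are noted above for some genes only. Others named here had them too, among them Pim1, Cflar, Irf1, Arg2 and Csf1r in 12 of 12 libraries. Of 55335 identifiers, 55154 matched GENCODE M21.

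Expected counts were rounded. All 12 libraries entered 1 edgeR 4.0.16 quasi-likelihood fit (R 4.3.3, TMM scaling, filterByExpr, 1 mean per group), and WTL was contrasted with WT. Genes were called at a Benjamini-Hochberg adjusted p under 0.05 over the 14357 genes tested and more than 2-fold. CPM use TMM-scaled library sizes, and errors are SE of the fitted log2 fold change. The calculation was tested on simulated data. Alternatives used DESeq2 1.42.0, limma 3.58.1 on log2 of the deposited TPM plus 1, other scalings, filters and thresholds, and left out each library. The edgeR fit shares its spread with the JSH-23 groups, and p-values measure the spread between these libraries.

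Named genes were the 10 largest rises and falls and the 5 largest gains and losses in CPM (called protein-coding genes, at least 10 CPM in the higher group, over 3 counts in every WT and WTL library, no overlap), the 3 largest called changes each way per gene list and among noncoding RNAs, and key regulators. Other list members were named after their values were seen. The gene lists, like the comparison, were chosen with earlier results of these data known. The named κB consensus is the common 10-base form. Promoters are from RefSeq on GRCm38.p6. A few list members are counted but not reported here.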

Additional observations from a re-analysis of the deposited data

Results flagged for a closer look

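The size of the LPS response differed for some genes between cells with and without JSH-23, tested as an interaction in the same edgeR fit over all 12 libraries, with 3 per group (adjusted p under 0.05 and a difference of more than 2-fold). The groups with JSH-23 carry other replicate numbers, and whether they were prepared alongside is not given, so that the inhibitor and the preparation cannot be told apart. Of the 14357 genes tested, the signed log2 LPS change was higher with JSH-23 for 134 genes and lower for 58. A higher value can be a larger rise or a smaller fall, and a lower value the opposite.

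Among the named genes that rose, the difference in log2 fold change (with minus without JSH-23) was -1.92 for Il12b, -1.72 for Shisa3, -1.6 for Dll4, -1.31 for Cd70, -1.29 for Cxcl3, -1.26 for Trem3, -1.21 for Il6, -1.2 for Il1a, -1.17 for Dll1, -1.12 for Il1b, -1.03 for Cxcl1 and -1.03 for Cish. Tnf stood apart with a difference of 1.08, its LPS rise being larger with the inhibitor. Among the genes that fell, the difference was 1.52 for Ppargc1b, 1.39 for Cd300lb, 1.26 for Fam78a, 1.11 for Rab7b, 1.04 for Ptgs1 and 1.03 for Cxcr4, a smaller fall with the inhibitor in each. Most of these genes were named for the size of their WTL against WT change, which also enters this difference. That choice favours a smaller LPS change with JSH-23, so that the shared direction is no separate result.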

How the results depend on the processing

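The counts of 1056 genes called higher and 1305 called lower stayed within 1.5 times under DESeq2 (1105 and 1171), median-of-ratios scaling, upper quartile scaling, both filters and a fit of only the 6 libraries. Leaving out 1 library gave 1035 to 1090 higher and 1266 to 1359 lower genes, with 1084 and 1359 without WTL replicate 6. A 1.5-fold threshold gave 1852 higher and 2671 lower genes and no fold threshold 4451 and 4986. On log2(TPM + 1), 403 were higher, and the added 1 shrinks changes of low genes. Same-numbered WT and WTL libraries deviated together only weakly over genes (correlations 0.0213, 0.0556 and 0.0614, each under 0.1). Each exceeded the correlations with other numbers, which were all negative (-0.0501 to -0.00276). Whether the numbers mark pairs was thus not settled. With the replicate number as a block, 1059 genes were higher and 1300 lower. The sign of a small change turned on TPM for Csf2ra (-0.209), Ciita (-0.14), Ccr7 (-0.223) and Itgax (-0.356), and with upper quartile scaling for Itgax (-0.065). Among the 139 named genes, Ccl22 (0.995), Dll1 (0.989), Tlr7 (0.964) and Ly75 (0.95) fell below 2-fold with upper quartile scaling. Over all genes, 940 of the 1056 rises kept their call under that scaling. Other genes described above as just past 2-fold, such as Hif1a, Sod2 and Isg15, were not followed singly through the alternatives. On log2(TPM + 1), 22 of the 139 named genes lost their call, among the rises Sqstm1 (0.991), Ikbkb (0.984), Jag1 (0.952), Nfkb1 (0.946), Cd86 (0.905), Slfn2 (0.843), C5ar1 (0.804), Ccl22 (0.743), Nod2 (0.726), Tlr7 (0.691), Ly75 (0.687), Egln3 (0.678), Spry4 (0.333) and Dll1 (0.13), and among the falls Dusp7 (-0.977), Tnfsf13b (-0.921), Ptger2 (-0.82), Cenpf (-0.611), Nrarp (-0.35), Kcnq1ot1 (-0.2), Notch3 (-0.191) and Jag2 (-0.059). Depth limits genes of a few counts, such as Csf3 and Nrarp.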
